A study of Mus musculus with 16 samples.

Results

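Mep1a, Slc7a7, Slc7a8 and Slc43a2 are genes of the small intestine that serve the digestion of peptides and the transport of amino acids. They were chosen by gene name and are 4 of the 2438 genes in the deposited table. The data were RNA sequencing libraries of mouse duodenal epithelium, 1 for each sample. All mice were 8 weeks old when a high fat diet (HFD) began, and all ate it for 19 weeks. The 9 control libraries came from Ephb4 fl/fl mice, which carry recombination sites around both Ephb4 alleles (called flox here, with replicate numbers 1 to 7, 9 and 10). The 7 others came from Ephb4-IKO mice, in which the intestinal epithelium lacks Ephb4 (KO, replicates 1 to 5, 7 and 8). The sources used here do not give the recombinase line, strain or sex of the mice, and there was no group on another diet. The comparison asked how the loss of EphB4, a receptor tyrosine kinase of the ephrin family, bears on the proximal intestine in diet-induced obesity.

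Dietary protein reaches the enterocyte as small peptides and free amino acids. Peptidases on the brush border and in the cytosol finish its digestion, apical carriers take the products up, and basolateral carriers hand amino acids on to the blood. Mep1a encodes the alpha subunit of meprin, a zinc metalloprotease that is secreted or held at the brush border. Slc7a7 encodes y+LAT1, a basolateral exchanger that releases cationic amino acids such as arginine and lysine. Slc7a8 encodes LAT2, a basolateral exchanger of neutral amino acids. Both exchangers reach the membrane only when bound to the heavy chain 4F2hc, which Slc3a2 encodes. Slc43a2 encodes LAT4, a basolateral uniporter of branched-chain amino acids, phenylalanine and methionine that needs no heavy chain.

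The 4 genes lie on 3 chromosomes of the GRCm38 build, all of them protein coding. Mep1a (ENSMUSG00000023914) spans 17:43474324-43502812 on the minus strand, and Slc43a2 (ENSMUSG00000038178) spans 11:75531694-75577575 on the plus strand. Slc7a7 (ENSMUSG00000000958, 14:54369442-54417780) and Slc7a8 (ENSMUSG00000022180, 14:54722209-54781946) are both on the minus strand of chromosome 14, 304 kb apart. Between them lay 2 listed genes, Lrp10 with a log2 fold change of -0.34 and Prmt5 with 0.55 in the authors' deposited table. In the GENCODE annotation of the same build, the 3′ end of Slc7a7 overlaps Oxa1l on the opposite strand. Slc43a2 overlaps the antisense gene Gm45606 and the microRNA gene Mir3971. The sources used here do not give whether the authors' counting used strand, so reads in the shared bases cannot be told apart.

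The promoters are shown because the genes were lower together in KO. The lines give the 150 bases upstream of the start, 5′ to 3′ on the gene's own strand, from RefSeq's table for GRCm38.p6. They are chr17:43502813-43502962 for Mep1a, chr14:54417945-54418094 for Slc7a7, chr14:54781947-54782096 for Slc7a8 and chr11:75531544-75531693 for Slc43a2. Of the 5 windows that RefSeq gives for Slc7a7, the most upstream was taken, and it begins 165 bases from the deposited 5′ end of the gene. Capitals mark matches to the CCAAT box.
Mep1a: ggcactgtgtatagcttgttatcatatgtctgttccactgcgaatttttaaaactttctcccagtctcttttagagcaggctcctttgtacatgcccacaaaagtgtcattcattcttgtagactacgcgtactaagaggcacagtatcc
Slc7a7: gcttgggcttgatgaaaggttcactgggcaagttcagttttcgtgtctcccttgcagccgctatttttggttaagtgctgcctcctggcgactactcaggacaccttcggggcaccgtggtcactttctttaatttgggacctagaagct
Slc7a8: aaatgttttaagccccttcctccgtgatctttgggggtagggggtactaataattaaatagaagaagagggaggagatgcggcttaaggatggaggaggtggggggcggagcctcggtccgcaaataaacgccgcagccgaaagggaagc
Slc43a2: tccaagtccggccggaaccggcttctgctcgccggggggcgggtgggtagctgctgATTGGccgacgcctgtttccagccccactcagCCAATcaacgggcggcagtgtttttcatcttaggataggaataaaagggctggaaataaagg
The GC content was 42% for Mep1a, 51.3% for Slc7a7, 53.3% for Slc7a8 and 58.7% for Slc43a2, beside a median of 54% over 27025 promoters of this length. Slc43a2 held 2 matches to CCAAT, at 94 to 90 bases upstream on the opposite strand (ATTGG) and at 62 to 58 bases upstream. At least 1 such match occurred in 25.3% of all promoters. None of the 4 windows held TATAAA (8.08% of promoters), the GATA motif AGATAA (5.76%), the CDX motif TTTATG (6.49%) or the nuclear receptor motif AGGTCA (8.45%). Nor did any hold the HNF4A motif CAAAGTCCA (0.27%) or the HNF1 motif (0.0074%). Both strands were searched.

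The values below are normalised counts, which are read counts divided by 1 size factor per library by the authors. The largest adjusted p in the deposited table was 0.0497, so every gene in it had passed the authors' own threshold on these libraries. The listed genes were 14.8% of the 16488 genes over which they adjusted, with 7.81% lower and 6.97% higher in KO. Only listed genes could be chosen, so that all 4 were listed carries no information. All 4 were listed as lower, beside 1288 lower and 1150 higher among all 2438 listed genes. They were chosen with earlier results of these data known, so their shared direction is no evidence either. No test below is independent evidence of a difference. The own test was limma on log2(normalised count + 1) of those listed genes whose mean reached 10, adjusted by the Benjamini-Hochberg method over all 16488 genes. It called 820 of 2339 genes lower (35.1%) and 449 higher (19.2%) at an adjusted p under 0.05. Slc7a7, Slc7a8 and Slc43a2 passed that threshold as lower, and Mep1a did not.

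Facts about the libraries bear on every value. Each library held between 3592468 and 5316273 recovered reads in listed genes, and the total depth is unknown. Ephb4 checked the labels, at 102.7 to 353.8 normalised counts in flox and 23.3 to 84.7 in KO, so that the groups stood apart (log2 difference -2.51, exact permutation p 8.74e-05, the smallest possible). Of 8 markers of the epithelium, the table listed 3 (Vil1, Krt20 and Lgals4), all lower in KO. Each was at 31791 or more in every library. Their sum ran from 144917 to 201339 in flox and from 106246 to 144737 in KO. Of 62 markers of T cells, B lineage, myeloid cells, mast cells, stroma and endothelium, the table listed 14, each with higher values in KO. Their sum ran from 833 to 2109 in flox and from 1030 to 3804 in KO, and Lum alone was at 0, in 6 libraries. Of 31 pancreatic enzyme genes, 24 were listed, all lower in KO. Their sum ran from 7342 to 145051 in flox replicates 4, 6, 7, 9 and 10 and from 399 to 1824 in the 11 other libraries. Of all genes tested, 6.97% were listed as higher and 7.81% as lower, and the direction is known only for listed markers. In such bulk samples, fewer cells of a type and less RNA per cell cannot be told apart.

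At the apical side, Mep1a was at 757 to 1669 normalised counts in the KO libraries, with a median of 1117, and at 1042 to 2253 in the flox libraries, with a median of 1581. KO replicates 1, 2 and 4 lay below every flox library, at 757, 761 and 966. KO replicate 8, at 1669.4, stood above 5 flox libraries, and 4 flox libraries (replicates 3, 7, 9 and 10) lay above every KO library. The groups therefore overlapped, although 6 of 7 KO libraries were under the flox median. The means were 1081 ± 310 (SD, n = 7) in KO and 1546 ± 402 (SD, n = 9) in flox. The log2 difference was -0.52 ± 0.18 (SE, 95% interval -0.89 to -0.15), with an adjusted p of 0.0759 in limma, which missed the threshold. The exact permutation p for this gene alone was 0.0212 (two-sided), and the authors' deposited table gave an adjusted p of 0.0328. Without KO replicate 8 the difference was -0.63 and passed in limma with an adjusted p of 0.0307. Mep1a varied most of the 4 genes within groups, with a coefficient of variation of 26.0% in flox and 28.7% in KO.

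**Figure D1:**
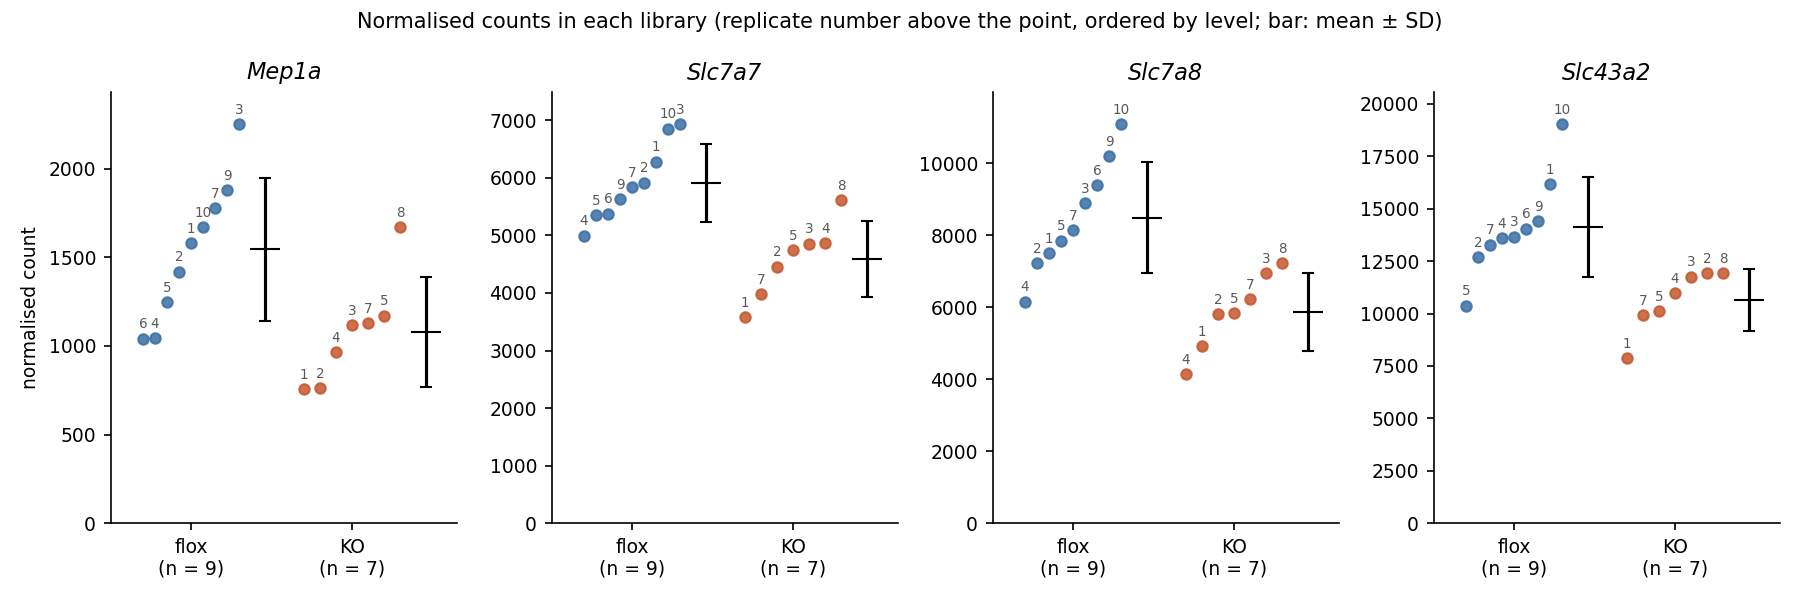
Normalised counts of Mep1a, Slc7a7, Slc7a8 and Slc43a2 (y axes from 0) in the 9 flox libraries (blue) and 7 KO libraries (orange), ordered by level, with replicate numbers above the points and mean ± SD as bars. The groups overlap for each gene, and KO replicate 8 is the highest KO library in all 4 panels.

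At the basolateral side, Slc7a7, the exporter of cationic amino acids, fell in KO. Its KO libraries ran from 3583 in replicate 1 through a median of 4747 to 5612 in replicate 8. Its flox libraries ran from 4993 in replicate 4 through a median of 5843 to 6938 in replicate 3. Only KO replicate 8 reached into the flox range, and the 6 other KO libraries lay below every flox library. The means were 4587 ± 661 (SD, n = 7) and 5909 ± 672 (SD, n = 9). The log2 difference was -0.37 ± 0.09 (SE, 95% interval -0.57 to -0.18), with an adjusted p of 0.0237 in limma and an exact permutation p of 0.00114. Slc7a7 had the smallest difference of the 4 genes and the smallest spread within flox, at a coefficient of variation of 11.4%. Its call was lost without KO replicate 1 (adjusted p of 0.0502 in limma) and without KO replicate 7 (0.0594).

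Slc7a8, the exchanger of neutral amino acids, fell as well. The KO libraries held 4135 (replicate 4) to 7231 (replicate 8) normalised counts with a median of 5832, and the flox libraries 6158 (replicate 4) to 11096 (replicate 10) with a median of 8137. All flox libraries but replicate 4 stood above every KO library, although flox replicate 2, at 7233, was level with KO replicate 8. KO replicates 1, 2, 4 and 5 lay below every flox library. The means were 5869 ± 1087 (SD, n = 7) in KO and 8495 ± 1549 (SD, n = 9) in flox. The log2 difference was -0.53 ± 0.13 (SE, 95% interval -0.80 to -0.27), with an adjusted p of 0.0190 in limma and an exact permutation p of 0.00166. Of the 4 genes, it alone passed in limma with each of the 16 libraries left out in turn.

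Slc43a2, the uniporter, fell in KO too. Its KO libraries ran from 7876 in replicate 1 through a median of 10981 to 11930 in replicate 8, and its flox libraries from 10376 in replicate 5 through 13657 to 19045 in replicate 10. Flox replicate 5 was the single flox library inside the KO range. KO replicates 1, 5 and 7 lay below it. The means were 10644 ± 1476 (SD, n = 7) and 14141 ± 2394 (SD, n = 9). The log2 difference was -0.41 ± 0.11 (SE, 95% interval -0.64 to -0.17), with an adjusted p of 0.0342 in limma and an exact permutation p of 0.00236. This call was the least stable of those for the 3 transporters, since it held in 8 of 16 fits that each left out 1 library. It was lost without flox replicates 1, 3, 4 or 10 and without KO replicates 1, 4, 5 or 7, where adjusted p ran up to 0.0748 in limma. None of the 4 genes had groups without overlap, which 5.33% of the listed genes had with lower values in KO (10.1% of those listed as lower) and 1.93% with higher values in KO.

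Per kb of the deposited gene length, Slc7a7 had the highest level on average and Mep1a the lowest. These lengths ran from 3315 bases for Slc7a7 to 10042 for Slc43a2, and the order of the transporters depends on them. Slc7a7 held 1783 ± 203 normalised counts per kb in flox and 1384 ± 199 in KO. Slc7a8 followed at 1697 ± 309 and 1173 ± 217, and Slc43a2 at 1408 ± 238 and 1060 ± 147. Mep1a held 448 ± 117 and 313 ± 90 (SD, n = 9 and n = 7 throughout). Mep1a was the lowest in all 16 libraries. The transporters followed the order Slc7a7, Slc7a8, Slc43a2 in 8 libraries, while Slc43a2 stood above Slc7a8 in 4 libraries and Slc7a8 above Slc7a7 in another 4. Neighbouring transporters in this order differed by less than the SD of the higher one in flox, as did Slc7a8 and Slc43a2 in KO. In KO, Slc7a7 and Slc7a8 differed by slightly more than that, with overlapping ranges. As a share of the summed level per kb of the 4 genes, Mep1a made up 8.34 ± 1.63% in flox and 7.89 ± 1.40% in KO.

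To ask whether the protease and the transporters differed by unlike amounts, the log2 ratio of each pair was taken within each library, which removes the size factor. For Mep1a to Slc7a8 the ratio was -2.48 ± 0.35 in flox (SD, n = 9) and -2.46 ± 0.31 in KO (SD, n = 7). The change of 0.02 had a 95% interval of -0.34 to 0.38 (exact permutation p of 0.925). The ratio of Mep1a to Slc7a7 changed by -0.15 (-0.45 to 0.15), and that of Mep1a to Slc43a2 by -0.11 (-0.53 to 0.29). Among the transporters, the ratio of Slc7a7 to Slc7a8 changed by 0.16 (-0.10 to 0.44), that of Slc7a7 to Slc43a2 by 0.03 (-0.15 to 0.22) and that of Slc7a8 to Slc43a2 by -0.13 (-0.41 to 0.15). None of the 6 changes passed the test, with exact permutation p from 0.225 to 0.925 and adjusted p over the 6 from 0.687 to 0.925. The intervals leave room for unequal changes of up to 0.53 on the log2 scale. The sign of 2 changes, Mep1a to Slc7a8 and Slc7a7 to Slc43a2, turned in some of the fits on fewer libraries.

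Correlations within each group were then taken. Of 28 correlations, over pairs of the genes and over each gene with Ephb4 or the non-epithelial marker score, none reached an adjusted p under 0.05 in the exact permutation test. Mep1a and Slc7a7 had r of 0.78 over the 9 flox libraries (exact permutation p 0.0146, adjusted 0.275) and a Spearman rho of 0.68 (exact p 0.0503, adjusted 0.464). Without flox replicates 3 and 10, r was 0.71. Slc7a7 and Slc43a2 had r of 0.83 over the 7 KO libraries (exact permutation p 0.0196, adjusted 0.275) and a rho of 0.75 (exact p 0.0663, adjusted 0.464). Without KO replicates 1 and 7 that r was 0.23, so it rested on those libraries.

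The heavy chain gene Slc3a2 ran close to Slc7a8. Slc3a2 held 4642 to 6796 normalised counts in KO with a median of 5821, and 6430 to 10111 in flox with a median of 7757, and it fell by 0.48 on the log2 scale (adjusted p 0.0106 in limma). With each group's mean removed, Slc3a2 had the highest Pearson correlation with Slc7a8 of 2338 listed genes over the 16 libraries, at 0.85. For Slc7a7, which uses the same heavy chain, the value was 0.61 and Slc3a2 stood at place 215. For Slc43a2, which needs none, it was 0.60 at place 184, and for Mep1a 0.55 at place 130. The log2 ratio to Slc3a2, taken after the data were seen, changed by -0.06 for Slc7a8 (95% interval -0.22 to 0.10, exact permutation p 0.480) and by 0.11 for Slc7a7 (-0.07 to 0.29, p 0.218). Adjusted over these 2 ratios the p-values were 0.480 and 0.437.

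**Figure D2:**
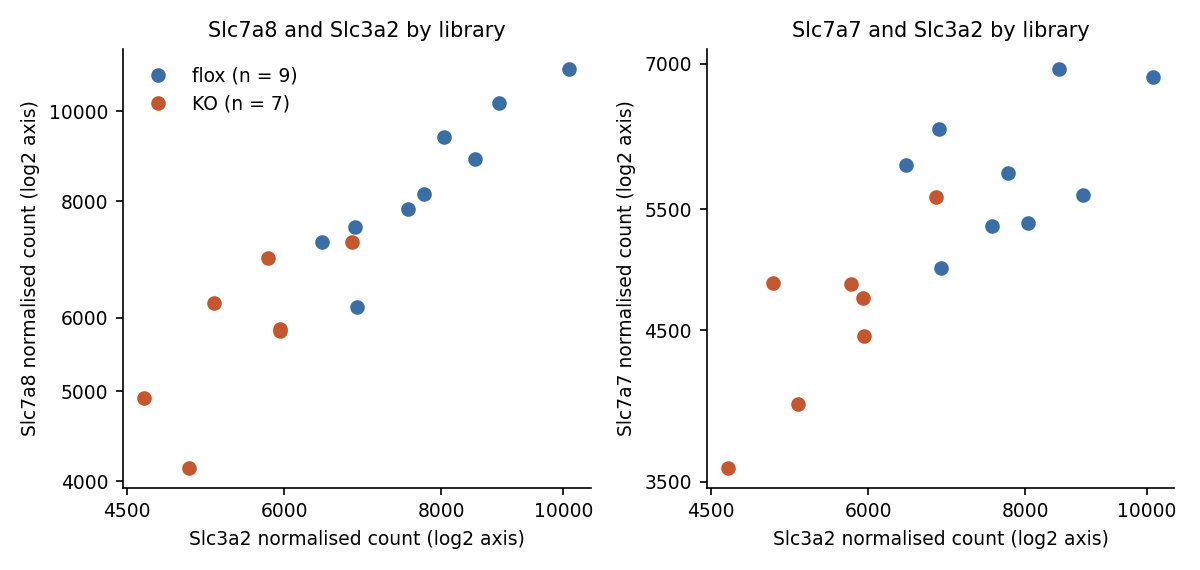
Normalised counts of Slc7a8 (left) and Slc7a7 (right) against those of Slc3a2, the gene of their shared heavy chain, on log2 axes, with 1 point per library (flox blue, n = 9, and KO orange, n = 7). With group means removed the correlation with Slc3a2 was 0.85 for Slc7a8 and 0.61 for Slc7a7.

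The genes closest to each of the 4 by the same measure are given as a description, since the 16 libraries share depth, dissection and cell makeup. After Slc3a2, Slc7a8 was most like Ace, the brush border peptidase, at 0.80 and the water channel gene Aqp1 at 0.78. Mep1a was most like Sacm1l, which encodes a phosphoinositide phosphatase, at 0.89, the heme exporter gene Flvcr1 at 0.88 and the fatty acid transporter gene Cd36 at 0.88. Slc7a7 was most like the TNF receptor gene Tnfrsf1a at 0.93, the cytosolic aconitase gene Aco1 at 0.90 and the junction gene Jup (plakoglobin) at 0.88. Slc43a2 was most like Lima1, which encodes an actin-binding protein, at 0.88, the proton pump gene Atp6v0a2 at 0.88 and the receptor gene Lrp10 at 0.87. Vil1, which encodes villin of the microvillus core, stood at place 5 for Slc43a2 with 0.85. With Spearman's correlation in place of Pearson's, 1 of the 3 closest genes was shared for Mep1a, 1 for Slc7a7, 2 for Slc7a8 and 2 for Slc43a2.

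Among the other genes of peptide digestion, 11 of a list of 20 peptidases were listed and all 11 were lower in KO in the authors' deposited table, with a median log2 fold change of -0.52. For comparison, 7.81% of all genes tested were listed as lower, and the median was -0.37 over all genes listed as lower. Mep1a, which could be chosen only because it was listed, is 1 of the 11. In limma all 11 lay below 0. Of these 11 peptidases 4 were called lower, a share close to the 35.1% of all fitted genes that were called lower. The count was 9 without KO replicate 8, where 751 of 2332 fitted genes were called lower. In DESeq2 it was 11, where 1264 of 2438 genes were called lower. It was 1 in edgeR without KO replicates 1 and 3, where 245 of 2318 genes were. The submitters' notes name DESeq2 too, so its 11 calls largely repeat the choice of the listed genes. Ace fell by 0.67 (adjusted p 0.0221), the cytosolic dipeptidase gene Cndp2 by 0.62 (0.0173), the leucine aminopeptidase gene Lap3 by 0.56 (0.0190) and the prolidase gene Pepd by 0.44 (0.0136). Pepd was at 5335 to 8171 normalised counts in KO and 8681 to 11792 in flox, without overlap. The 6 others beside Mep1a were Enpep, Ggt1, Naaladl1, Xpnpep1, Xpnpep2 and Dpep1, with log2 differences of -0.52 to -0.25 that missed the threshold in limma. The meprin beta gene Mep1b was among the 9 peptidases that were not listed, and these were not analysed here.

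Basolateral and other amino acid carriers were listed at 9 of 16, with 7 lower and 2 higher in KO. Of all genes tested, 7.81% were listed as lower and 6.97% as higher. The 7 include Slc7a7, Slc7a8 and Slc43a2, which could be chosen only because they were listed. In limma 6 of the 8 fitted carriers were called lower, beside 35.1% of all fitted genes. Besides Slc3a2 and the 3 transporters above, limma called Slc16a10, the carrier of aromatic amino acids, lower by a log2 difference of -0.35 (adjusted p 0.0278). It also called Slc25a15, the mitochondrial ornithine carrier, lower, by -0.43 (adjusted p 0.00342). Slc38a3, a glutamine carrier, was under the limit on the mean and was not fitted, with 1.03 to 27.5 normalised counts in flox and 0 to 3.62 in KO. The 2 genes listed as higher encode other partners of the same heavy chain. Slc7a11, the cystine and glutamate exchanger, rose by 2.32 ± 0.65 (SE, adjusted p 0.0379 in limma), from a median of 6.60 in flox (range 1.91 to 64.5) to 74.2 in KO (12.1 to 134.7). Slc7a5, the exchanger LAT1 of large neutral amino acids, was at 19.9 to 64.3 in flox and 41.1 to 173 in KO, with a log2 difference of 0.92 and an adjusted p of 0.0610 in limma. The groups overlapped for both genes, and KO replicate 1 held the most of both. With the non-epithelial marker score in the fit, the difference was 0.10 for Slc7a11 and 0.25 for Slc7a5, with an adjusted p of 1 in limma for both.

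Apical carriers and enzymes of amino acid breakdown were seldom listed. Of 13 apical carriers 1 was listed (7.69%, beside 6.97% of all genes listed as higher), namely Slc1a5, at 97.2 to 312.9 normalised counts in flox and 239.8 to 581.4 in KO (adjusted p 0.0954 in limma). Of 14 enzymes 1 was listed (7.14%, beside 7.81% of all genes listed as lower), Gpt, the alanine aminotransferase, which fell by 0.70 on the log2 scale (adjusted p 0.00801 in limma). Its call was lost after quantile normalisation, with the replicate block, with the marker covariate and without the 5 flox libraries rich in pancreatic transcripts, where adjusted p ran from 0.0872 to 1 in limma. In the authors' deposited table, over the 4 lists 22 of 63 genes were listed, 19 lower and 3 higher, beside 7.81% and 6.97% of all genes. The 4 genes themselves, chosen among listed genes, are among the 19. Lower values were common among all abundant listed genes: of the 768 whose mean reached 1000 normalised counts, 712 were lower in KO, with a median log2 fold change of -0.36 among the 712. In this ordering by size of the fall, Slc7a8 stood at place 78 of 712, Mep1a at 93, Slc43a2 at 229 and Slc7a7 at 329. Of 62 listed solute carrier genes, 51 were lower and 11 higher, beside 1288 lower and 1150 higher among all 2438 listed genes.

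**Figure D3:**
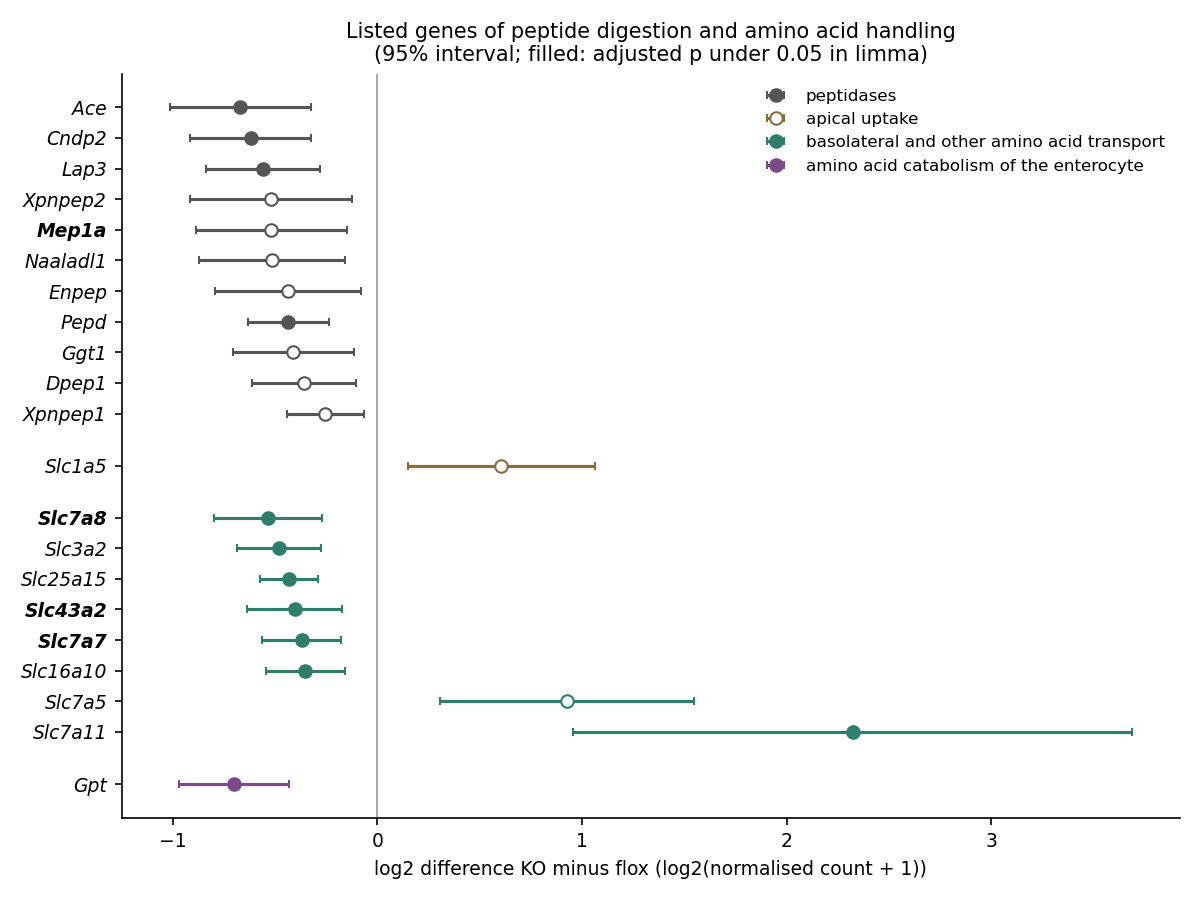
Log2 difference of KO minus flox with its 95% interval in limma (x axis) for the 21 listed genes of the 4 lists with a mean of at least 10, coloured by list, with the 4 genes in bold and filled points for an adjusted p under 0.05. All 11 peptidases and 6 of 8 carriers of the basolateral list lie below 0.

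Markers of other cells moved with the groups beside all of these differences. The mean log2 level of the 14 listed non-epithelial markers was 5.10 ± 0.41 in flox (SD, n = 9) and 6.24 ± 0.66 in KO (SD, n = 7; exact permutation p 0.00149). Only genes that passed the authors' threshold on these libraries entered it. Its difference follows from that choice, and the p-value is no evidence of one. This level was highest in KO replicate 1, at 7.12. KO replicates 2 and 3, at 5.23 and 5.45, lay within the flox range of 4.64 to 5.98. In these replicates Slc7a7 was at 4460 and 4856, both below every flox library. Mep1a was at 761 and 1117 and Slc7a8 at 5801 and 6955, with KO replicate 2 alone below every flox library for each. Slc43a2 was at 11923 and 11749, both inside the flox range. Of 14 proliferation markers 10 were listed, all higher in KO, beside 6.97% of all genes listed as higher. Of 11 markers of mature enterocytes 5 were listed, all lower, beside 7.81% of all genes listed as lower. The enterocyte score, the mean log2 level of these 5, was lower by 0.58 on the log2 scale (exact permutation p 0.000175). The unlisted markers could not enter it, so this difference too follows from the choice of listed genes. The part of these markers in the differences of the 4 genes was not tested. The non-epithelial score, used as a covariate next, holds only genes listed for a difference between these groups. That fit therefore cannot measure this part.

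**Figure D4:**
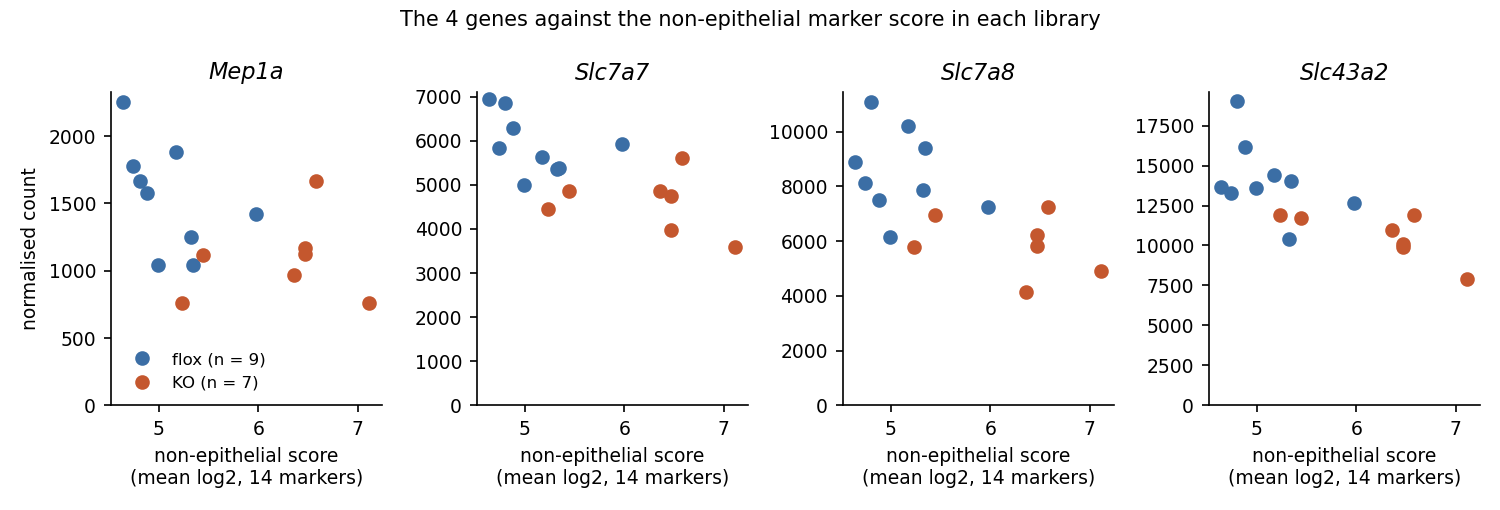
Normalised counts of the 4 genes (y axes from 0) against the mean log2 level of 14 non-epithelial markers (x axis), with 1 point per library, flox in blue and KO in orange. KO replicates 2 and 3 have scores of 5.23 and 5.45 inside the flox range, and KO replicate 1 is farthest to the right at 7.12.

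The size and the calls of the differences depended on the scaling and on which libraries were used. The median over all fitted genes was -0.25, and relative to it the differences were -0.27 for Mep1a, -0.12 for Slc7a7, -0.29 for Slc7a8 and -0.16 for Slc43a2. TMM scaling on the listed genes moved that median by 0.14, and quantile normalisation moved it by 0.25. Both used only listed genes, which were all selected for a difference between these groups. They can therefore take out part of a fall that these genes share. After quantile normalisation Slc7a7 and Slc43a2 differed by -0.015 and -0.016, Slc7a8 by -0.20 and Mep1a by -0.22. When the fit held the non-epithelial score as a covariate, the differences were -0.42 for Mep1a, -0.23 for Slc7a7, -0.38 for Slc7a8 and -0.13 for Slc43a2, with adjusted p of 1 for the 3 transporters in limma. Without the 5 flox libraries rich in pancreatic transcripts they were -0.60, -0.42, -0.44 and -0.31 in the same order. That fit held fewer flox libraries. Its differences were larger than those on all 16 libraries for Mep1a (-0.52) and Slc7a7 (-0.37). They were smaller for Slc7a8 (-0.53) and Slc43a2 (-0.41). None passed in limma under any of these 4 settings, and the peptidase and carrier lists then held 0 to 2 calls each of lower genes. Relative to Vil1 in the same library, a ratio added after the data were seen, Slc7a7 differed by -0.033 (95% interval -0.18 to 0.11), Slc43a2 by -0.068 (-0.20 to 0.069), Slc7a8 by -0.20 (-0.49 to 0.09) and Mep1a by -0.18 (-0.59 to 0.23). Vil1 was itself listed as lower in KO, with a median of 59324 normalised counts in flox and 49614 in KO. A ratio to it therefore takes out part of any fall that it shares with the 4 genes.

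**Figure D5:**
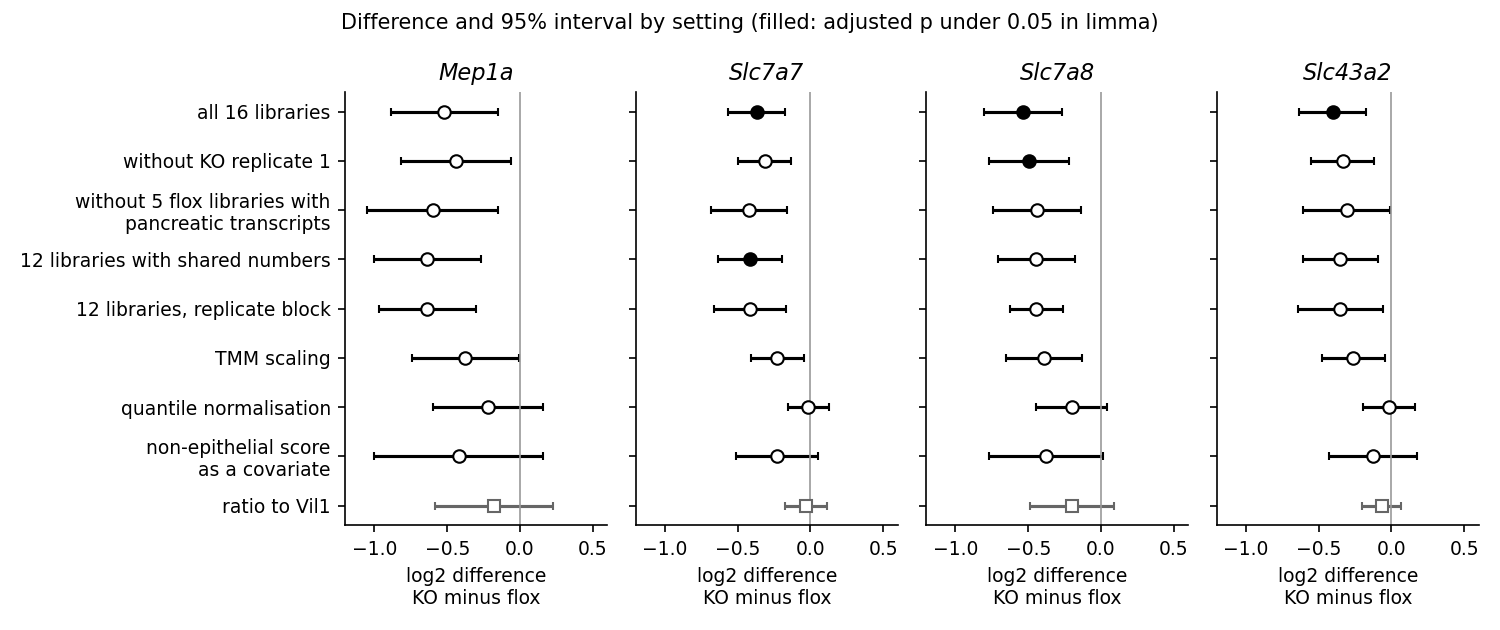
Log2 difference of KO minus flox with its 95% interval (x axis) for each of the 4 genes by setting (rows), with filled circles for an adjusted p under 0.05 in limma and grey squares for the ratio to Vil1. The estimates lie below 0 in every row, and the intervals of the quantile normalisation, covariate and Vil1 rows cross 0 in each panel.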

How the data were processed

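RNA of 16 duodenal libraries was extracted with TRIzol, selected with poly-T beads and made into libraries with the NEBNext Ultra kit, per the labels' protocols. Per the submitters' processing notes, the tools were DESeq2 1.20.0, HISAT2 2.0.5 and featureCounts 1.5.0-p3, and the genome build was GRCm38 (mm10). The deposited signal columns are read counts divided by a size factor, as the values show: within a tolerance of 0.0001 reads, 100% were whole multiples of 1 step per library, with size factors of 0.878 to 1.38. The deposited table also gives the authors' log2 fold change, p-value and adjusted p-value, and the length of each gene. It holds 2438 of the 16488 genes over which the authors adjusted, and unlisted genes were not analysed here. Within each group no 2 libraries were duplicates (smallest chi-square per degree of freedom 16.7). The labels do not say that each library is 1 mouse, though library and mouse numbers match, so p-values measure the spread between these libraries.

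limma 3.58.1 (R 4.3.3, trend and robust moderation) was fitted to log2(value + 1) of genes with a mean of at least 10, without covariates, on all 16 libraries. Unlisted genes took a p of 1 in the Benjamini-Hochberg adjustment over 16488 genes. On this scale the change of genes with low counts depends on the added constant. That of Slc7a11 was 2.42 with 0.5, 2.32 with 1 and 1.53 with 10, beside 2.07 in the authors' deposited table. For single values and ratios, exact permutation tests (two-sided) ran over the 11440 ways to divide the libraries, with 95% intervals from shifting the data. edgeR 4.0.16 and DESeq2 1.42.0 were run on recovered reads. An automatic check of the recovery could not test KO replicates 1 and 3, so both were also run without them. The limma, edgeR and DESeq2 fits of KO against flox were tested on simulated data, and the other settings were not. Alternatives were the scaling (TMM, quantile), pseudocount, filter, block, marker covariate and libraries left out.

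The 4 genes, the 4 pathway lists and the marker lists were chosen with earlier results of these data known. Genes named are the 4, the 3 listed genes most correlated with each after removing group means, every listed gene of the 4 pathway lists, Ephb4, and markers on which a result turns, Vil1 among them. Prmt5 is named for its position. The ratios to Vil1 and to Slc3a2 were added after the data were seen. No column of other samples was present.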

Additional observations from a re-analysis of the deposited data

Results flagged for a closer look

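The highest and the lowest library of each group were compared with the rest for the 4 genes, their ratios and the other named genes, 58 groups in all, and 8 stood apart. Chance alone would single out about 1 in 20 groups. KO replicate 1 stood apart in 4 of them. It held 84.7 normalised counts of Ephb4, where the next KO library held 37.3, and 581.4 of Slc1a5, where the next held 370.2. It held 5335 of Pepd, where the next lowest held 7065, and 5770 of Xpnpep1, where the next lowest held 7487. In KO replicate 4 the log2 ratio of Slc7a7 to Slc7a8 was 0.24, above the next KO library at -0.30. Flox replicate 3 held 8393 of Slc16a10 against 7166 in the next, flox replicate 10 held 27.5 of Slc38a3 against 8.61, and flox replicate 2 held 64.5 of Slc7a11 against 23.7. These values are given without an explanation.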

How the results depend on the processing

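All 4 genes stayed lower in KO under every setting run. For Mep1a, DESeq2 gave -0.52 and passed (adjusted p 0.0345) but gave -0.44 without KO replicates 1 and 3 (adjusted p 0.192). The submitters' notes name DESeq2 too, so its calls on all 16 libraries largely repeat the choice of the listed genes. Fits of Mep1a without 1 library ran from -0.63 to -0.44, with 1 of 16 past the threshold. Without 1 library, Slc7a7 ran from -0.42 to -0.31 (14 of 16 passed), Slc7a8 from -0.59 to -0.45 (16 of 16) and Slc43a2 from -0.46 to -0.33 (8 of 16). The calls of Slc7a7, Slc7a8 and Slc43a2 were lost, in this order, with TMM (-0.23, -0.39, -0.26), quantile normalisation (-0.015, -0.20, -0.016), the covariate (-0.23, -0.38, -0.13) and without the pancreatic libraries (-0.42, -0.44, -0.31). They were also lost in edgeR without KO replicates 1 and 3 (-0.32, -0.54, -0.37) and as ratios to Vil1 (-0.033, -0.20, -0.068), both added after seeing the data. DESeq2 on those 14 libraries kept all 3 calls (adjusted p 0.0239, 0.00702 and 0.0294). TMM and quantile normalisation used only listed genes, and Vil1 was itself listed as lower. Calls lost in these settings can therefore follow from taking out a shared fall.

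With a replicate block over the 6 shared numbers the values were -0.42, -0.45 and -0.35, and none passed. On the same 12 libraries with no block, Slc7a7 passed, while Slc7a8 at -0.45 and Slc43a2 at -0.35 did not. The deviations of libraries with the same number correlated at -0.38, -0.43, 0.37, -0.08, 0.10 and 0.24. Between flox and KO libraries with unlike numbers the correlations ran from -0.59 to 0.59. Whether a shared number means anything more was not tested.

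Counts of higher and lower listed genes, 449 and 820 in limma, were 724 and 189 with TMM, 192 and 168 after quantile normalisation, 5 and 4 with the block, and 103 and 252 on the same 12 libraries. They were 3 and 4 with the covariate, 5 and 6 without the pancreatic libraries, 975 and 1264 in DESeq2, and 135 and 245 in edgeR without KO replicates 1 and 3. With a mean of at least 100, 223 were higher. Without 1 library they ran from 153 to 596 and from 365 to 902, lowest without KO replicate 7.

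The change in the ratio of Mep1a to Slc7a8 turned to -0.19 with the block, -0.16 without the pancreatic libraries, and ran from -0.070 to 0.093 without 1 library. That of Slc7a7 to Slc43a2 turned to -0.064 and -0.12. The causes were not tested. Total depth is unknown, so it sets no limit that can be stated.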
